A study of Homo sapiens with 12 samples.

Results

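The genes described here were 9 transcription factors that pattern the mouth and face: PITX1, SOX2, PAX9, TBX1, FOXE1, MSX1, MSX2, DLX3 and DLX5. They were chosen by name, as regulators of oral and craniofacial identity, from the 58735 genes of the count table, with earlier results of these data known. All 9 were among the 16618 genes that averaged 10 or more raw counts per library, the limit for testing. SOX2 and MSX1 reached it mainly through TIGK, since their raw counts in untreated HaCaT were 5 to 11 and 3 to 4. Polyadenylated RNA was sequenced from HaCaT, an immortalized human keratinocyte line of skin origin, and from TIGK, a gingival keratinocyte line immortalized with telomerase. Of each line, 3 libraries came from untreated cells and 3 from cells kept for 3 h in 5 mM H2O2, 4 groups in all, to ask how skin and oral keratinocytes differ in their response to oxidative stress. All cells were grown to maximum confluency in DermaLife K Keratinocyte Complete Medium, so the groups differed in line and H2O2 alone by their labels. Each tissue was represented by 1 line, so body site, donor and mode of immortalization cannot be told apart, and p-values measure only the spread between libraries of the same line.

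These factors belong to gene families that divide the embryonic head into territories. PITX1, PAX9, the MSX genes and the DLX genes are known from tooth and jaw development, where oral epithelium and the neural crest mesenchyme under it exchange BMP, FGF, SHH and WNT signals that switch such factors on and off. TBX1 and FOXE1 act in the pharyngeal region that forms the throat, palate and thyroid, and SOX2 maintains stem cells of the foregut and oral epithelium. Several are also known from adult epithelia, DLX3 as a regulator of epidermal differentiation and PITX1 and SOX2 as factors of oral mucosa.

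The libraries held 30426401 to 49034244 counted reads, and the TMM factors, which correct library size for composition, lay between 0.962 and 1.04. The chi-square per degree of freedom between replicates was 4.36 to 26.9, so no library was a copy of another. Mitochondrial genes took 3.33% to 3.45% of reads in untreated TIGK and 1.39% to 1.5% after H2O2, against 6.1% to 6.26% and 3.3% to 3.51% in HaCaT, and their part in the results was not tested. The 8 keratinocyte markers, KRT5 and KRT14 among them, summed to 9960 to 12800 RPKM (counts per kilobase of gene length at TMM-scaled library size) in every library. The 6 fibroblast markers summed to 2.19 to 2.58 RPKM in TIGK and 0.896 to 1.17 in HaCaT, mostly from COL1A1, with COL1A2 at 0 in all 12 libraries. COL1A1 had a mean of 1.69 RPKM in untreated and 1.83 in treated TIGK, and 1.01 in both HaCaT groups. DCN stood at 0.422 and 0.507 RPKM in untreated and treated TIGK, and at 0.0105 and 0.00153 in HaCaT. The 3 neural crest markers summed to at most 0.398 RPKM, the 4 melanocyte markers to at most 0.724 and the 3 endothelial markers to at most 0.158. The 4 leukocyte markers summed to 1.29 to 1.82 RPKM in TIGK, mostly from CD14, and to at most 0.208 in HaCaT. In bulk RNA, fewer cells of a type and less RNA per cell cannot be told apart.

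To compare the promoters of the 3 members that best represent the patterns below, the 250 bases before the RefSeq start of each gene are printed 5′ to 3′ on the plus strand of GRCh38.p14. PAX9 is shown because its neighbours shared its direction, FOXE1 because it was abundant in both lines, and MSX1 because it had the largest difference between the lines and differed in its response to H2O2. Capitals mark matches on either strand to a GC box, GGGCGG, or to a CCAAT box, CCAAT.
PAX9, chr14:36657318-36657567: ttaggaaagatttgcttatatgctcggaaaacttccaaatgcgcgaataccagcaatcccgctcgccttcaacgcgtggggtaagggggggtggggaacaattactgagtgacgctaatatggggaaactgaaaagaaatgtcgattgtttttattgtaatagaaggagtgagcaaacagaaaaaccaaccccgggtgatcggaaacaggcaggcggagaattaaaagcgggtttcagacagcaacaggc
FOXE1, chr9:97852976-97853225: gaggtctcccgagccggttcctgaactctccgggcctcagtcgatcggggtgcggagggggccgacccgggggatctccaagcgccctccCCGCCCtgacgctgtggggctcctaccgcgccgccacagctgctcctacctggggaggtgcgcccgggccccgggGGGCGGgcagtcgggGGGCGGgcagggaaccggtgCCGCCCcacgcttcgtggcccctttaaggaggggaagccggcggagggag
MSX1, chr4:4859415-4859664: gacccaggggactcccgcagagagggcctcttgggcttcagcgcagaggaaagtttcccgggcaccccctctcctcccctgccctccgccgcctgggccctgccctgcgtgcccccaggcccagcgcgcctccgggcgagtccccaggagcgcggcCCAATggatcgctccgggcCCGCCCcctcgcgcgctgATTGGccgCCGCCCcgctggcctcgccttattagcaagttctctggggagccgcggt
PAX9 has another RefSeq start inside the gene, whose window (chr14:36661610-36661859, not printed) held 2 GC boxes and 1 CCAAT box at 54.8% GC. The printed PAX9 window held no match, the FOXE1 window held GC boxes alone, and the MSX1 window held 2 GC boxes and 2 CCAAT boxes. GC content was 46.8% for the printed PAX9 window, 75.6% for FOXE1 and 74% for MSX1, against a median of 58% over all 35116 RefSeq promoter windows of this length. Windows were found for 7 of the 9 members, 8 windows in all, of which 5 held a GC box and 4 a CCAAT box. Over all windows, 42.6% held a GC box and 32.0% a CCAAT box. None of the 8 windows held a TATA box (TATAAA, sense strand, 6.8% of all windows), a bicoid-type homeodomain site (TAATCC, 5.62%), an AP-1 site (TGANTCA, 6.57%) or a cyclic AMP response element (TGACGTCA, 1.65%), the last 3 sought on both strands. The PAX9 window lay inside AL079303.1, a gene on the opposite strand, and the FOXE1 window shared 105 bases with PTCSC2, also on the opposite strand, with at most 17 raw counts in a library. The MSX1 window overlapped no gene of the count table.

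At baseline, 8 of the 9 factors were higher in TIGK and 1, DLX3, was higher in HaCaT. MSX1 and SOX2 differed the most, PAX9, DLX5, PITX1, TBX1 and FOXE1 differed by 2.69-fold to 4.57-fold, and MSX2 and DLX3 differed by less than the other members. A call is an adjusted p under 0.01 in edgeR's quasi-likelihood test, and 59.9% of all tested genes were called in this comparison, 30.8% higher in TIGK and 29.1% higher in HaCaT. The log2 fold change of HaCaT over TIGK had a median of -1.57 over the members and of -0.00698 over all tested genes. The 3 untreated libraries of each line did not overlap for any member, which was also the case for 73.3% of all tested genes. The difference was larger than 2-fold as well as called for 7 members, against 27% of all tested genes.

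**Figure D1:**
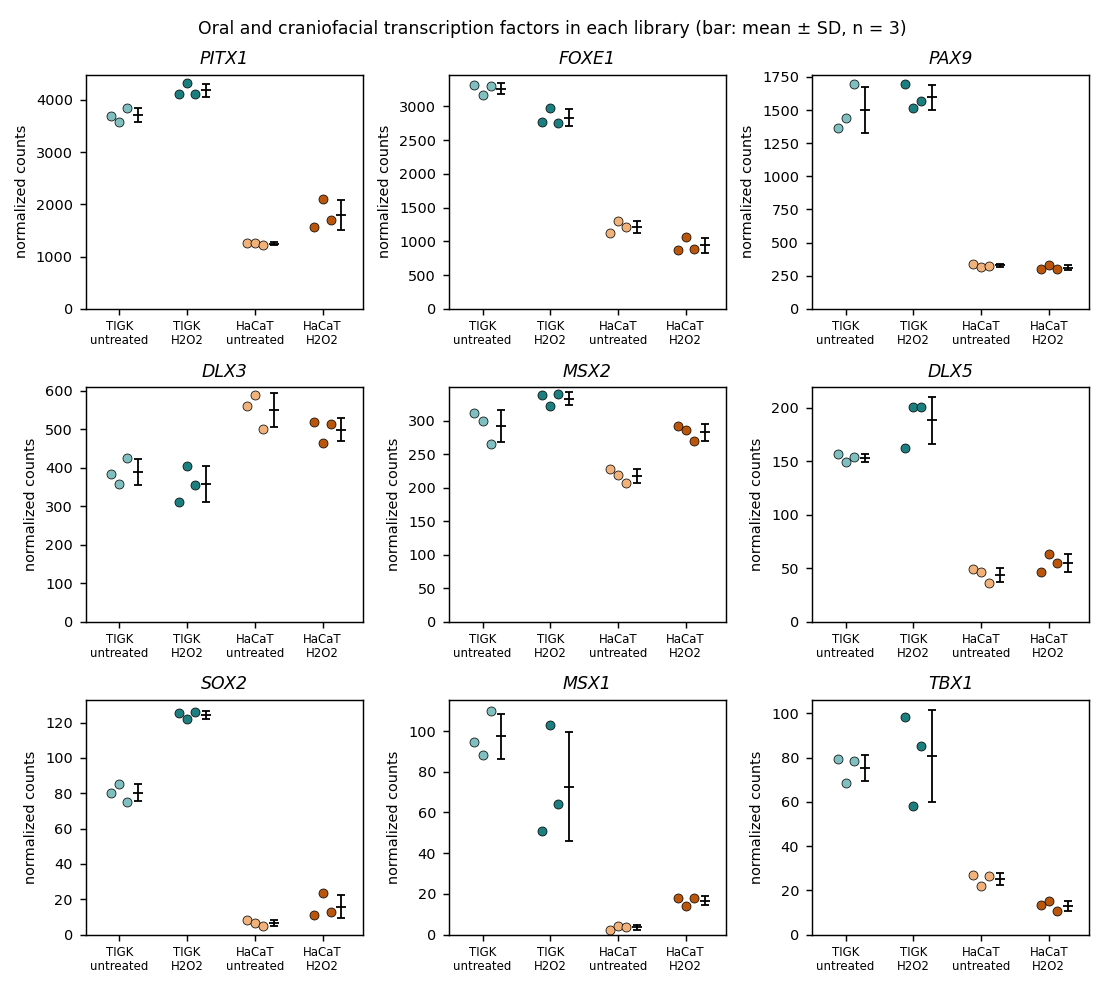
Normalized counts (raw counts scaled to a common TMM library size, linear axes that start at 0) of the 9 factors in each of the 12 libraries, with 1 panel per gene. Points are libraries, and bars are the mean ± SD of 3 libraries per group. DLX3 is the panel in which the HaCaT libraries stand above the TIGK libraries, and in the SOX2 and MSX1 panels the HaCaT points lie near 0.

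PITX1, a homeobox factor of the hindlimb, lower jaw and oral epithelium, was the most abundant member (ENSG00000069011, chr5:135027735-135034813, minus strand). Its normalized counts were 3702, 3585 and 3846 in untreated TIGK and 1265, 1258 and 1222 in untreated HaCaT. The lines stood far apart, with little spread inside either. The log2 fold change was -1.57 (SE 0.0821, adjusted p = 2.68e-12), or 2.97-fold higher in TIGK. SOX2, a stem cell factor of foregut and oral epithelium (ENSG00000181449, chr3:181711924-181714436, plus strand), gave 80.34, 85.02 and 75.26 normalized counts in untreated TIGK and 8.405, 6.631 and 4.937 in untreated HaCaT. Every HaCaT library lay far below the TIGK libraries, although SOX2 was also a low gene in TIGK. The log2 fold change was -3.54 (SE 0.333, 11.6-fold, adjusted p = 1.58e-08).

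PAX9, a paired-box factor needed for pharyngeal pouches, palate and teeth (ENSG00000198807, chr14:36657568-36679715, plus strand), was clearly present in both lines. Its normalized counts were 1364, 1437 and 1697 in untreated TIGK and 338.5, 316.1 and 326.8 in untreated HaCaT. Untreated TIGK library 3 was the highest of its group, and the HaCaT libraries were close to each other. TIGK exceeded HaCaT by 4.57-fold, with a log2 fold change of -2.19 (SE 0.0925, adjusted p = 1.08e-13). TBX1, the T-box factor of the pharyngeal arches (ENSG00000184058, chr22:19756703-19783593, plus strand), was the lowest member per length in untreated TIGK. It gave 79.32, 68.43 and 78.4 normalized counts there and 26.74, 22.1 and 26.66 in untreated HaCaT, without overlap. The log2 fold change was -1.57 (SE 0.288, 2.97-fold, adjusted p = 7.93e-05). FOXE1, a forkhead factor of thyroid and palate (ENSG00000178919, chr9:97853254-97856715, plus strand), was abundant in both lines, at 3322, 3169 and 3300 normalized counts in untreated TIGK and 1118, 1304 and 1216 in untreated HaCaT. The spread inside each line was small beside the gap between them. Its log2 fold change was -1.43 (SE 0.0766, 2.69-fold, adjusted p = 3.99e-12).

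The MSX pair differed between the lines to unequal degrees. MSX1, a homeobox factor of tooth and palate mesenchyme (ENSG00000163132, chr4:4859666-4863936, plus strand), gave 94.57, 88.13 and 109.8 normalized counts in untreated TIGK and 2.292, 4.42 and 3.949 in untreated HaCaT. The HaCaT values rest on 3, 4 and 4 raw reads, close to the lower end of what the depth can measure. The log2 fold change was -4.78 (SE 0.409, 95% interval -5.63 to -3.92, adjusted p = 4.19e-09), or 27.4-fold. MSX2, a homeobox factor of the skull and skin appendages (ENSG00000120149, chr5:174724533-174730893, plus strand), gave 311.2, 299.6 and 265.5 normalized counts in untreated TIGK and 227.7, 218.8 and 206.4 in untreated HaCaT. These groups lay close together without overlapping, at a log2 fold change of -0.42 (SE 0.116, 1.34-fold, adjusted p = 0.00329). The MSX2 call was lost without untreated TIGK library 1 (adjusted p = 0.0165), without untreated TIGK library 2 (0.0156), without untreated HaCaT library 3 (0.0159) and with no filter on low counts (0.0249), and over all alternatives its adjusted p ranged from 0.000681 to 0.0249.

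The DLX pair differed between the lines in opposite directions. DLX3, a homeobox factor of epidermal differentiation, hair and teeth (ENSG00000064195, chr17:49990005-49995224, minus strand), gave 384.4, 356.7 and 425.4 normalized counts in untreated TIGK and 559.3, 589 and 501.6 in untreated HaCaT. All HaCaT libraries exceeded all TIGK libraries. The log2 fold change was 0.50 (SE 0.114, adjusted p = 0.000688), or 1.41-fold higher in HaCaT. DLX5, which specifies the lower jaw (ENSG00000105880, chr7:97020392-97024950, minus strand), gave 156.6, 149.3 and 153.7 normalized counts in untreated TIGK and 48.9, 46.41 and 36.53 in untreated HaCaT. Here TIGK was the higher line, with a log2 fold change of -1.79 (SE 0.198, 3.47-fold, adjusted p = 1.51e-07).

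**Figure D2:**
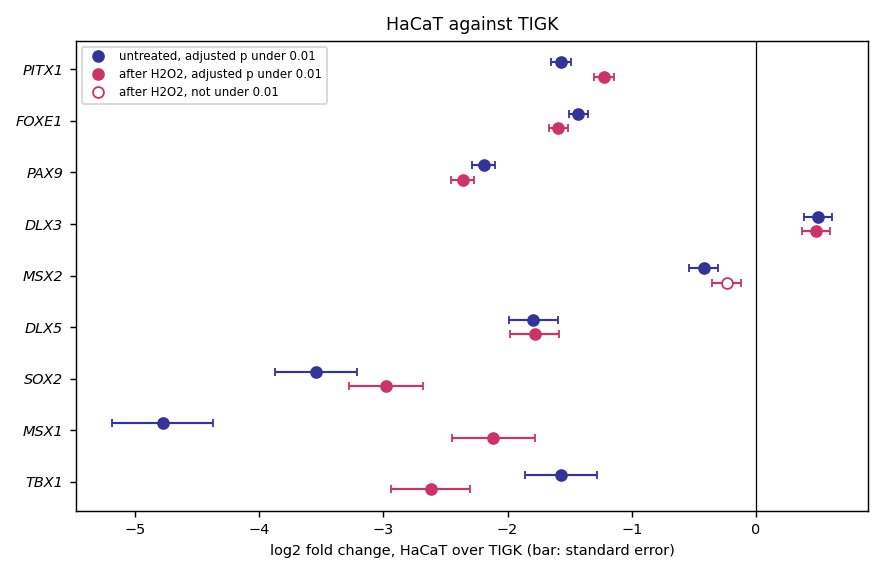
Log2 fold change of HaCaT over TIGK for the 9 factors, untreated and after H2O2, with SE bars from edgeR. Values below 0 are higher in TIGK, and the open symbol, MSX2 after H2O2, did not reach an adjusted p under 0.01.

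Per gene length, PITX1 and FOXE1 led the order of levels in every group. In untreated TIGK, PITX1 stood at 29.1 ± 1.02 RPKM (SD, n = 3) and FOXE1 at 26 ± 0.662 RPKM, followed by PAX9 at 6.85, DLX3 at 3.95, MSX2 at 3.55, DLX5 at 2.42, MSX1 at 1.27, SOX2 at 0.88 and TBX1 at 0.58 RPKM. Of these neighbours, DLX3 and MSX2 overlapped between libraries and the others did not. Only 8.64% of tested genes had a higher RPKM than PITX1 in untreated TIGK, and 9.92% a higher one than FOXE1. In untreated HaCaT, PITX1 at 9.8 ± 0.178 RPKM and FOXE1 at 9.66 ± 0.742 RPKM could not be separated, and DLX3 came next at 5.58, ahead of MSX2 at 2.64 and PAX9 at 1.49. DLX5 followed at 0.693 and TBX1 at 0.194, and SOX2 at 0.073 overlapped MSX1 at 0.0462 RPKM. The order differed between the lines in PAX9, which stood above DLX3 in TIGK and below both DLX3 and MSX2 in HaCaT, and in TBX1, which stood below SOX2 and MSX1 in TIGK and above them in HaCaT. After H2O2, PITX1 reached 32.9 RPKM in TIGK and 14.1 in HaCaT, FOXE1 stood at 22.5 and 7.48, and TBX1 had the lowest mean in both lines, at 0.622 and 0.101 RPKM, although in TIGK it overlapped MSX1 at 0.945 RPKM. The levels of the 9 members summed to 72.17 to 77.05 RPKM in untreated TIGK, 74.78 to 78.93 in TIGK after H2O2, 29.26 to 31.37 in untreated HaCaT and 30.54 to 36.29 in HaCaT after H2O2, mostly from PITX1 and FOXE1.

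The paralogue pairs were balanced differently in the lines. MSX1 amounted to 36.1% ± 7.12 (SD, n = 3) of the MSX2 level per length in untreated TIGK and to 1.76% ± 0.594 in untreated HaCaT. After H2O2 the share was 23.5% ± 9.45 in TIGK and 6.32% ± 1 in HaCaT. DLX5 amounted to 61.5% ± 4.72 of the DLX3 level in untreated TIGK and to 12.4% ± 1.16 in untreated HaCaT. After H2O2 these shares were 82.2% ± 5.68 and 17.2% ± 3.61.

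After H2O2, the lines still differed at 8 of the 9 members, 7 higher in TIGK and DLX3 higher in HaCaT, in a comparison that called 60% of all tested genes, 29.8% higher in TIGK and 30.2% higher in HaCaT. The median was -1.78 over the members and 0.0181 over all tested genes, again as log2 of HaCaT over TIGK. Libraries of the lines did not overlap for any of the 9 members, nor for 71.3% of all tested genes, and 7 members were called with more than a 2-fold difference, against 27% of all tested genes. PAX9 was 5.14-fold higher in TIGK (log2 -2.36, SE 0.0941, adjusted p = 4.99e-14), TBX1 6.14-fold (log2 -2.62, SE 0.318, 5.53e-07) and FOXE1 3.02-fold (log2 -1.59, SE 0.0783, 1.16e-12). PITX1 was 2.34-fold higher in TIGK (log2 -1.23, SE 0.0808, 9.04e-11), SOX2 7.89-fold (log2 -2.98, SE 0.298, 3.77e-08), DLX5 3.44-fold (log2 -1.78, SE 0.195, 1.35e-07) and MSX1 4.34-fold (log2 -2.12, SE 0.334, 1.46e-05). MSX2 was no longer called, at a log2 fold change of -0.24 (95% interval -0.477 to 0.00178, adjusted p = 0.0718), although its libraries did not overlap. DLX3 was 1.4-fold higher in HaCaT (log2 0.48, SE 0.115, adjusted p = 0.00103), a call that was lost without TIGK library 3 after H2O2 (log2 0.43, adjusted p = 0.0107) and ranged from 0.000369 to 0.0107 over the alternatives. Over all 6 libraries of each line, treated and untreated, 8 members did not overlap between the lines, MSX2 being the exception, against 46.7% of all tested genes.

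In TIGK, H2O2 changed none of the 9 members at an adjusted p under 0.01 in edgeR or in DESeq2 fitted to all libraries, while 23.2% of all tested genes were called, 10.2% upregulated and 12.9% downregulated, and 3.74% were called with more than a 2-fold change. FOXE1, SOX2 and PITX1 had an unadjusted p under 0.05 in edgeR. The share of all tested genes at that limit was not counted, but it cannot be below the 23.2% called. FOXE1 went from 3322, 3169 and 3300 normalized counts to 2772, 2976 and 2747, without overlap, at a log2 fold change of -0.20 (SE 0.0738, adjusted p = 0.0373). A fit to the TIGK libraries alone called FOXE1, with adjusted p = 0.00572 in edgeR and 0.00251 in DESeq2. SOX2 went from 75.26 to 85.02 normalized counts to 125.3, 121.8 and 125.9, also without overlap, at a log2 fold change of 0.63 (SE 0.249, adjusted p = 0.0555). PITX1 went to 4118, 4332 and 4110 normalized counts, above all untreated libraries, at a log2 fold change of 0.17 (SE 0.0783, adjusted p = 0.091). MSX2 with 337.6, 321.7 and 339.7 and DLX5 with 162.4, 200.8 and 201.1 normalized counts also stood apart from their untreated libraries, so that 5 members in all did not overlap, against 51.1% of all tested genes. The 95% intervals of the log2 fold change were -0.0877 to 0.265 for PAX9, -1.02 to 0.18 for MSX1, -0.366 to 0.12 for DLX3 and -0.459 to 0.65 for TBX1. MSX1 and TBX1 varied widely between treated TIGK libraries, from 51.05 to 102.8 and from 58.05 to 98.63 normalized counts. The median log2 fold change was 0.0955 over the members and 0.00842 over all tested genes.

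In HaCaT, PITX1 and MSX1 were upregulated and FOXE1 was downregulated by H2O2, in a comparison that called 34.1% of all tested genes, 18.9% upregulated and 15.2% downregulated. PITX1 went from 1265, 1258 and 1222 to 1559, 2111 and 1701 normalized counts, with library 2 the highest and all above the untreated libraries, at a log2 fold change of 0.52 (SE 0.0826, 1.43-fold, adjusted p = 5.85e-05). MSX1 went from 2.292, 4.42 and 3.949 to 17.8, 13.99 and 18.15 normalized counts, which rest on 16, 12 and 17 raw reads. Its groups did not overlap, and the log2 fold change was 2.24 (SE 0.478, 4.72-fold, adjusted p = 0.000879). It was the member called with more than a 2-fold change, against 5.27% of all tested genes. A fit to the HaCaT libraries alone did not call it, with adjusted p = 0.0138 in edgeR and 0.0135 in DESeq2, and the range over all alternatives was 0.000222 to 0.0138. FOXE1 went to 867.8, 1064 and 886.1 normalized counts, all below the untreated libraries, at a log2 fold change of -0.37 (SE 0.0791, 1.29-fold, adjusted p = 0.00096).

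The other 6 members were not called in HaCaT. SOX2 went to 11.13, 23.32 and 12.81 normalized counts, 10, 20 and 12 raw reads, at a log2 fold change of 1.19 (SE 0.392, 95% interval 0.371 to 2.02, adjusted p = 0.018). MSX2 went to 292.6, 285.6 and 269 normalized counts, at a log2 fold change of 0.37 (SE 0.117, adjusted p = 0.0132), and was called by DESeq2 on all libraries (adjusted p = 0.00978). TBX1 went to 13.35, 15.16 and 10.68 normalized counts, 12, 13 and 10 raw reads, at a log2 fold change of -0.95 (SE 0.341, adjusted p = 0.0287). These 3 genes stood apart from their untreated libraries, as did the 3 called members, which makes 6 of 9 against 53.8% of all tested genes. PAX9 (95% interval -0.288 to 0.128), DLX3 (-0.376 to 0.0966) and DLX5 (-0.139 to 0.757) overlapped between treated and untreated HaCaT. The median log2 fold change was 0.309 over the members and 0.0375 over all tested genes.

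**Figure D3:**
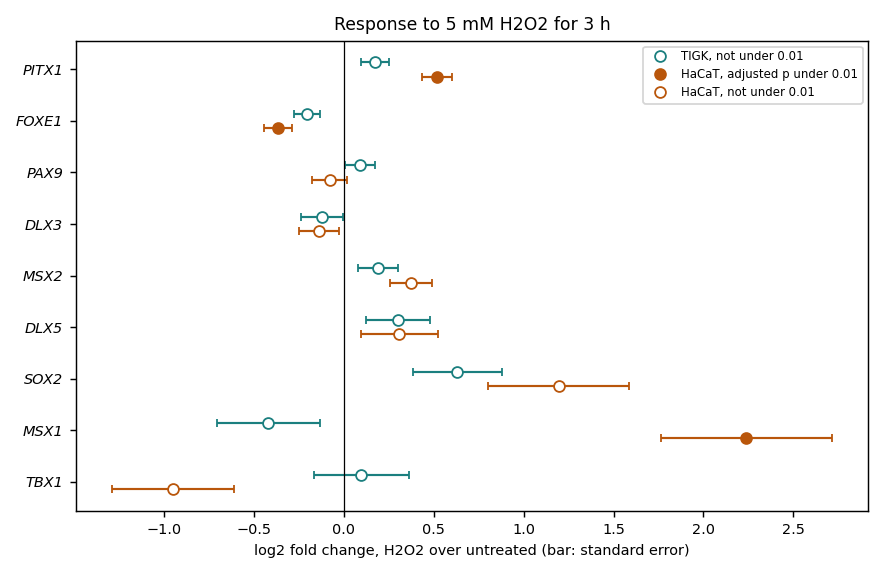
Log2 fold change of H2O2-treated over untreated libraries in each line for the 9 factors, with SE bars from edgeR. Filled symbols reached an adjusted p under 0.01, which was the case for PITX1, MSX1 and FOXE1 in HaCaT and for no member in TIGK.

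The difference of the responses, TIGK minus HaCaT, was tested directly and called 5.3% of all tested genes, 2.32% with the higher and 2.98% with the lower response in TIGK, and 1.14% with more than a 2-fold difference. A higher response is the more positive log2 fold change and need not be the stronger one. MSX1 was the member called, at -2.66 on the log2 scale (SE 0.559, 95% interval -3.83 to -1.49, adjusted p = 0.00426). In TIGK its level lay at 97.49 ± 11.1 normalized counts (SD, n = 3) untreated and 72.65 ± 26.9 after H2O2, and in HaCaT at 3.554 ± 1.12 and 16.65 ± 2.31, so the treated HaCaT level was still below every TIGK library. The call was lost without TIGK library 3 after H2O2 (-2.5, adjusted p = 0.0141), without untreated HaCaT library 1 (-2.38, 0.0207) and without untreated HaCaT library 3 (-2.76, 0.0101), and its adjusted p ranged from 0.000575 to 0.0207 over the alternatives. PITX1 differed by -0.35 (95% interval -0.584 to -0.107, adjusted p = 0.0544) and TBX1 by 1.05 (0.139 to 1.95, adjusted p = 0.13). For SOX2 the interval was -1.53 to 0.404, for DLX5 -0.564 to 0.544, for DLX3 -0.322 to 0.356 and for FOXE1 -0.0648 to 0.389. The median difference was -0.01 over the members and -0.0418 over all tested genes.

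Some members share their position with other genes, and whether the counting used strand is not given in the sources used here, so reads of overlapping genes may have been assigned to either. PAX9 overlapped the antisense gene AL079303.1, at 62 to 127 raw counts in TIGK and 0 to 12 in HaCaT, and SLC25A21 on the opposite strand, at 56 to 102 and 1 to 7. Both were higher in untreated TIGK, at log2 fold changes of -3.75 (SE 0.562, adjusted p = 7.99e-06) and -4.20 (SE 0.485, adjusted p = 2.78e-07), but far below PAX9 itself in counts. TBX1 overlapped GNB1L on the opposite strand, which went the other way and was 2.63-fold higher in untreated HaCaT (log2 1.39, SE 0.108, adjusted p = 9.52e-10), at 775 to 1140 raw counts there and 243 to 320 in TIGK. PITX1 overlapped C5orf66, at 18 to 70 raw counts over both lines, and AC008406.3, at no more than 22 raw counts, both antisense. SOX2 lay inside SOX2-OT, which had at most 10 raw counts in any library.

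The chromosomal surroundings were described through every tested gene within 500 kb of a member. Around PAX9, 5 of 7 neighbours were higher in untreated TIGK and none higher in HaCaT, with a median log2 fold change of -3.75. Besides both overlapping genes these were AL132857.2, a noncoding gene that ends 1.4 kb upstream (log2 -5.93, 16 to 42 raw counts in TIGK and 0 to 1 in HaCaT), NKX2-8 at 75 kb (-2.22) and NKX2-1, a thyroid and lung homeobox factor, at 136 kb (-4.63). AL132857.2 (chr14:36320753-36656163, plus strand) spans NKX2-8 and NKX2-1, both on the opposite strand. These neighbours are therefore not separate positions, and their reads may be shared. AL079303.1, SLC25A21, AL132857.2 and NKX2-1, the last with 1 to 10 raw counts in HaCaT, reached the limit for testing mainly through TIGK. Genes low in both lines were not tested, so the 5 of 7 and the median depend on this filter. Around DLX5, all 4 neighbours were higher in TIGK, with its paired homeobox gene DLX6 at 9.35 kb (-4.05) and DLX6-AS1 at 6.33 kb (-2.77) ahead of SDHAF3 (-0.55) and SEM1 (-0.40). DLX6, with 1 to 26 raw counts in HaCaT, was also tested mainly through TIGK. Around PITX1, 5 of 12 neighbours were higher in TIGK and none higher in HaCaT: JADE2 (-1.26), SAR1B (-0.64), TXNDC15 (-0.49), SEC24A (-0.26) and H2AFY (-0.22). Both called neighbours of MSX1 among 3 tested were higher in TIGK, STX18 (-0.74) and NSG1 (-2.97), at 317 and 441 kb.

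At the other loci the called neighbours went mostly against the member. Near FOXE1, 8 of 10 were higher in HaCaT and TDRD7 (-1.56) was the sole one higher in TIGK. Near TBX1, 9 of 21 were higher in HaCaT and 2, AC000068.1 (-1.54) and LINC00896 (-3.26), higher in TIGK. Near DLX3, 13 of 20 were higher in TIGK, among them DLX4 at 15 kb (-0.83, adjusted p = 0.0074), and 4 shared the direction of DLX3: AC002401.4 (2.03), PICART1 (1.53), FAM117A (1.49) and RSAD1 (0.83). No tested gene lay within 500 kb of SOX2 or MSX2. Across all tested genes, 30.8% were higher in TIGK and 29.1% in HaCaT, as given above.

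**Figure D4:**
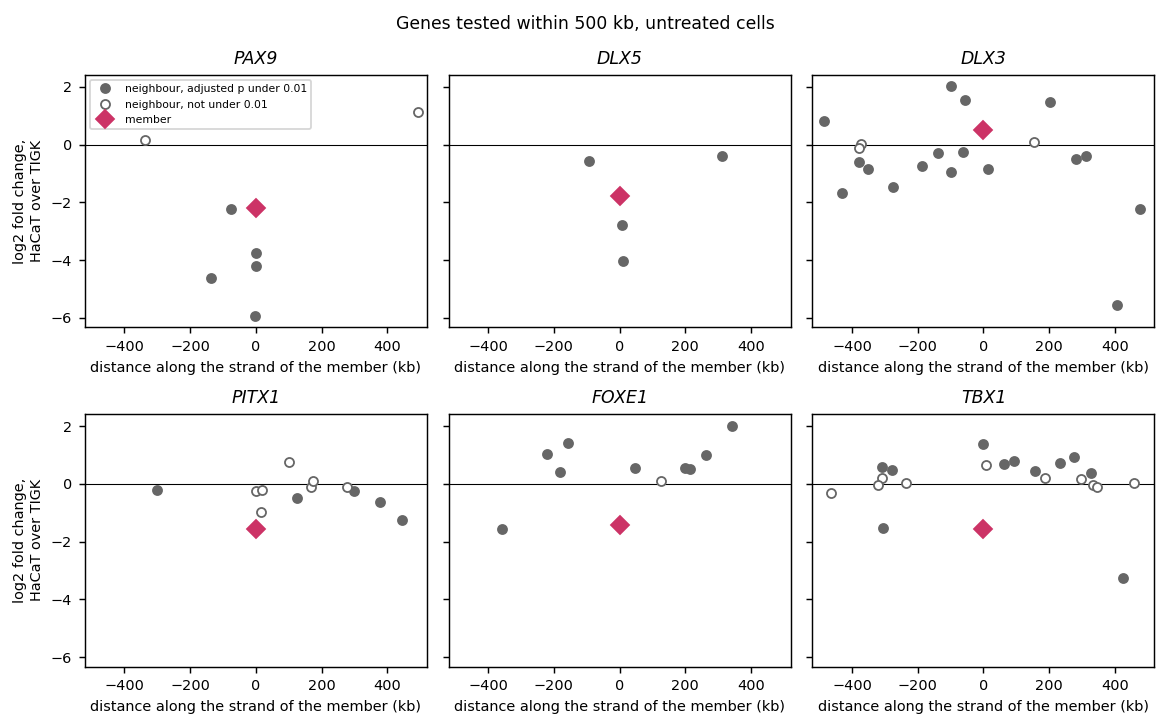
Log2 fold change of HaCaT over TIGK, untreated, for the tested genes within 500 kb of 6 members, against their distance from the member in kb along its own strand. Diamonds are the members and open circles genes that did not reach an adjusted p under 0.01. Around PAX9 and DLX5 the called neighbours lie below 0, and around FOXE1 8 of 9 called neighbours lie above 0.

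The genes whose pattern over the 12 libraries was most like that of a member were found by the root mean square distance of log2 CPM, each centred on its gene mean, among 11772 genes with a mean of at least 100 normalized counts. The nearest to PITX1 were QDPR (0.0962), GTPBP3 (0.113) and TBKBP1 (0.114), to FOXE1 IL27RA (0.0809), CHML (0.0943) and SLC26A2 (0.101), and to PAX9 DNMT3A (0.122), MAP4K2 (0.127) and HSPA4L (0.129). VPS28 (0.0626), NUTF2 (0.0632) and DDA1 (0.0674) lay nearest to MSX2, ZNF185 (0.0964), SCAI (0.1) and USP11 (0.109) to DLX3, and MARCHF2 (0.137), PGM2 (0.139) and SLFN11 (0.142) to DLX5. The nearest genes were close to their member in the log2 fold change between the untreated lines. It was -1.58, -1.47 and -1.64 for those nearest to PITX1, itself at -1.57. Whether they share regulation with the member was not tested. No member was among the 3 genes nearest to another. SOX2, MSX1 and TBX1 had a mean below 100 normalized counts and were not compared in this way.

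The paralogues of the members were higher in untreated TIGK wherever they could be tested. Of 24 listed, 9 were tested and all 9 were called higher in untreated TIGK, 8 to 10 over the alternatives, against 30.8% of all tested genes, with a median log2 fold change of -3.32. Several, TBX15 with at most 6 raw counts in a HaCaT library among them, reached the limit for testing mainly through TIGK. The count and the median therefore depend on this filter. TBX15 stood at 322.5 normalized counts in untreated TIGK and 3.252 in untreated HaCaT (log2 -6.52, SE 0.277, adjusted p = 1.11e-12), and PAX8, a thyroid and kidney factor, at 246.7 and 24.85 (log2 -3.32, SE 0.294, adjusted p = 7.09e-09). After H2O2, 7 of the 9 were called higher in TIGK, a count under the same filter, against 29.8% of all tested genes. DLX1, not called, alone had the higher mean in HaCaT, 475.7 against 382.3 normalized counts in TIGK (log2 0.31, SE 0.119). TBX15, at 0 in all treated HaCaT libraries, was at least 70.6-fold higher in TIGK, taking 3 counts per library as the floor. SOX21, untested, had 5 to 20 raw counts in TIGK and 0 in HaCaT.

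Other craniofacial transcription factors differed in both directions. Of 43 listed, 32 were tested, 16 were higher in untreated TIGK, 6 were higher in untreated HaCaT, and the median log2 fold change was -0.28. The share called was 68.8%, against 59.9% of all tested genes, 30.8% higher in TIGK and 29.1% higher in HaCaT. BARX1, a factor of molar and jaw mesenchyme, had 1447 normalized counts in untreated TIGK and 0 in HaCaT, at least 437-fold higher, and NKX2-5, known from heart and pharynx, had 877.3 and 0, at least 265-fold higher, against a floor of 3 counts per library. LHX6, an oral mesenchyme and jaw factor, stood at 1437 and 7.864 normalized counts (log2 -7.46, SE 0.216, adjusted p = 4.45e-16). BARX1, NKX2-5 and LHX6 reached the limit for testing through TIGK, so the count of 16 depends in part on this filter. SIX5, at 61.1 normalized counts in untreated TIGK and 113.6 in untreated HaCaT (log2 0.89, SE 0.267, adjusted p = 0.00625), and IRX5, at 181.2 and 300.6 (log2 0.73, SE 0.134, adjusted p = 7.98e-05), went the other way.

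Among the signalling genes of mouth and tooth, 26 of 33 were tested, 13 were higher in untreated HaCaT and 9 in untreated TIGK, with a median of 0.213. The share called was 84.6%, against 59.9% of all tested genes, of which 29.1% were higher in HaCaT and 30.8% in TIGK. The ectodysplasin receptor EDAR was higher in HaCaT, at 118.8 against 11.69 normalized counts (log2 3.33, SE 0.295, adjusted p = 6.86e-09), as were its ligand EDA (1.99) and FST, an inhibitor of activins (2.39). The ligand SHH had 171.2 normalized counts in untreated TIGK and raw counts of 3, 0 and 0 in untreated HaCaT, and after H2O2 the excess in TIGK was at least 41.6-fold against the same floor. LEF1, a nuclear partner of WNT signalling, stood at 100.3 normalized counts in untreated TIGK and 2.273 in untreated HaCaT (log2 -5.44, SE 0.423, adjusted p = 1.02e-09), and the ligand WNT6 at 136.1 and 10.25 (log2 -3.75, SE 0.328, adjusted p = 5.65e-09). SHH, LEF1 and WNT6, with at most 3, 14 and 13 raw counts in a HaCaT library, were tested mainly through TIGK. The count of 9 and the share called therefore depend in part on this filter.

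**Figure D5:**
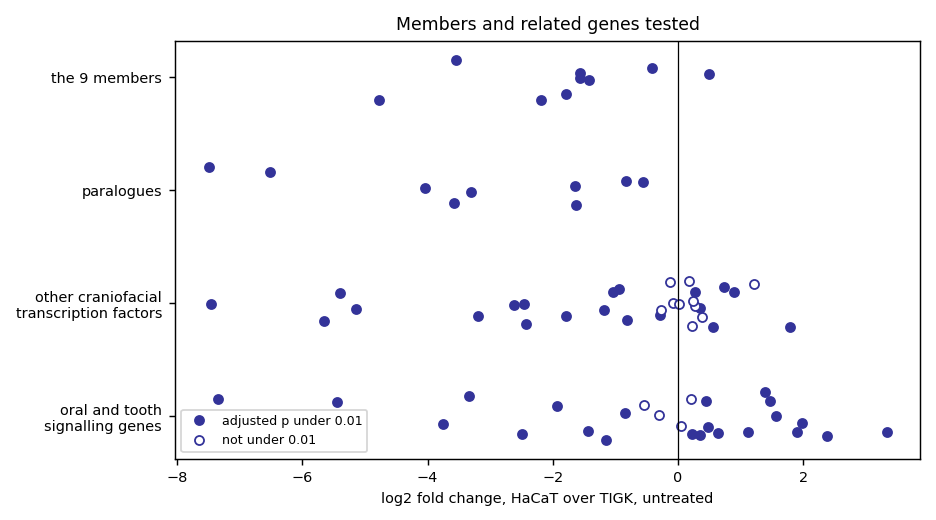
Log2 fold change of HaCaT over TIGK, untreated, for the tested genes of 4 lists: the 9 members, their paralogues, other craniofacial transcription factors, and oral and tooth signalling genes. BARX1 and NKX2-5 are left out because they had 0 counts in HaCaT. All 9 tested paralogues lie below 0, whereas the other lists lie on both sides.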

How the data were processed

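RNA-seq counts were analysed for 12 libraries of HaCaT and TIGK, grouped by their labels. The authors deposited 1 table of raw counts per gene with positions and lengths. It was made from reads mapped to GRCh38 with Hisat2 2.0.5 and counted with featureCounts 1.5.0-p3 by the methods, while the labels' protocol names Hisat2 2.0.0 and FPKM values. Annotation release, strand and multimapping are not given in the sources used here. In the labels the last digit of the compound's formula differs between replicates, whereas the treatment protocol names H2O2. The deposited fold changes and adjusted p-values of 4 comparisons were not used.

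Genes that averaged 10 or more raw counts were tested with edgeR 4.0.16 (TMM, quasi-likelihood F test, 1 mean per group, all 12 libraries, Benjamini-Hochberg adjustment over all tested genes, called at adjusted p under 0.01) in R 4.3.3. SE was derived from the log2 fold change and its F statistic. Levels between genes used RPKM computed from the counts, table lengths and TMM library sizes. DESeq2 1.42.0, other filters and scalings, fits on the compared groups alone and leaving out each library were alternatives. Scripts were tested on simulated data. Figures were drawn with matplotlib 3.10.9 in Python 3.11.15.

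The members and lists were chosen with earlier results of these data known. All members were named, with their overlapping genes and the neighbours that shared their call. Of each list, the 3 genes with the largest rise and fall in the untreated comparison were named (called, without overlap, and averaging 100 or more normalized counts where higher), with those called in the difference of responses. Some genes this rule selects are not reported here. For members averaging at least 100 normalized counts, the 3 nearest patterns were named. Genes named beyond this rule (DLX4, SOX21) were chosen after their values were seen. Promoter windows were taken from RefSeq on GRCh38.p14 and matched by symbol.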

Additional observations from a re-analysis of the deposited data

Results flagged for a closer look

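MSX1 responded differently to H2O2 in the lines by the test of the difference itself. The response in TIGK minus that in HaCaT was -2.66 on the log2 scale (SE 0.559, adjusted p = 0.00426 in edgeR's quasi-likelihood test), with 94.57, 88.13 and 109.8 normalized counts in untreated TIGK, 51.05, 102.8 and 64.13 after H2O2, and 3, 4 and 4 raw reads in untreated HaCaT against 16, 12 and 17 after H2O2. All treated HaCaT libraries lay above the untreated ones, and the TIGK groups overlapped. Without TIGK library 3 after H2O2, untreated HaCaT library 1 or untreated HaCaT library 3, the adjusted p was 0.0141, 0.0207 and 0.0101.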

How the results depend on the processing

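Over all alternatives, 895 of 927 values of the members kept their direction and their side of the threshold, 10 lost a call, 7 gained one and 15 changed sign. Of the members, those upregulated in HaCaT numbered 2, and 1 in fits on the HaCaT libraries alone with edgeR or DESeq2, where MSX1 was lost, and 4 at an adjusted p limit of 0.05. Those downregulated in HaCaT numbered 1, and 2 at 0.05. Of all tested genes, 18.9% were upregulated and 15.2% downregulated in HaCaT at 0.01. The shares at 0.05 can only be larger and are not given here. Those downregulated in TIGK numbered 0, and 1, FOXE1, in edgeR or DESeq2 on TIGK alone and at 0.05. With each library left out in turn, 7 to 8 members were higher in untreated TIGK, 0 to 1 higher in HaCaT after H2O2, and 0 to 1 lower in the difference of responses. The sign of the DLX5 difference (-0.01) turned with DESeq2 on all libraries (0.0139), DESeq2's size factors (0.0116), no filter (0.0486) and filterByExpr (0.0529), and it lay between -0.1 and 0.106 with libraries left out. The DLX3 difference (0.02) ranged from -0.0334 to 0.105 in the same way, and the TBX1 response in TIGK (0.10) from -0.0661, without library 1 after H2O2, to 0.313. Low raw counts limit SOX2, MSX1 and TBX1 in HaCaT.

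Over all genes, 385 had a higher and 496 a lower response in TIGK. These counts were 689 and 737 with DESeq2, 769 and 519 with no filter, 567 and 326 with filterByExpr, 847 and 1172 at 0.05, and 271 to 698 and 184 to 643 with libraries left out. At 0.05, H2O2 upregulated 2877 and downregulated 3121 genes in TIGK, against 1699 and 2151, and 2571 were upregulated with no filter. The replicate numbers did not pair the libraries, since the deviations of same-numbered libraries correlated at -0.0958 to 0.0759. With the replicate number as a block, all 45 calls of the members stayed on their side, and the difference of responses had 280 higher and 326 lower genes.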

Other observations

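Several relatives of the members differed between the lines in their response to H2O2, by the test of the difference itself in edgeR. DLX1 went from a mean of 626.3 to 382.3 normalized counts in TIGK and from 425.8 to 475.7 in HaCaT (TIGK minus HaCaT -0.87 on the log2 scale, adjusted p = 0.00208). DLX2 went from 587.6 to 727.7 in TIGK and from 189.6 to 433.9 in HaCaT (-0.88, adjusted p = 0.00198). They were the called paralogues, 2 of 9 against 5.3% of all tested genes, and 1 of them was called without TIGK library 2 or 3 after H2O2.

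Of the 32 other craniofacial transcription factors, 8 had the lower response in TIGK and 1 the higher, against 2.98% and 2.32% of all tested genes. Among the lower ones were SIX2 (-2.56), SIX4 (-0.55), IRX1 (-0.68), IRX3 (-0.67), IRX5 (-0.84), FOXF2 (-0.77) and TWIST2 (-1.09). The SIX2 value rests on 12, 4 and 2 raw reads in untreated HaCaT and 27, 22 and 7 after H2O2, groups that overlapped. TWIST2, a dermal mesenchyme factor, went from 848.6 to 466.4 normalized counts in TIGK and from 246 to 289 in HaCaT. The count of 8 fell to between 2 and 5 without any one of 10 of the libraries, to 6 without untreated TIGK library 3 and to 7 without HaCaT library 3 after H2O2. It was 5 with filterByExpr or with the replicate number as a block.

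Among the 26 signalling genes, EDAR (2.15), INHBA (0.93) and BMP2 (0.75) had the higher response in TIGK and LEF1 (-2.99), PTCH1 (-1.04), FST (-0.99) and JAG2 (-0.54) the lower, against 2.32% and 2.98% of all tested genes. These words follow the sign of the difference and not the strength of a response. INHBA fell less in TIGK (log2 -0.27, against -1.20 in HaCaT), and FST fell more (-1.70 against -0.71). With each library left out in turn, 3 to 5 had the lower response. The LEF1 value rests on few raw reads in HaCaT, 2, 3 and 2 untreated and 14, 8 and 8 after H2O2. INHBA, which encodes an activin subunit, went from 5808 to 4821 normalized counts in TIGK and from 17130 to 7463 in HaCaT. FST, the activin inhibitor, went from 6493 to 2002 in TIGK and from 33920 to 20780 in HaCaT. PTCH1, the SHH receptor, went from 391.6 to 181.9 in TIGK and from 854.2 to 815.4 in HaCaT.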
